A study of Oryza sativa with 4 samples.

Results

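Nuclei of rice root tips that lacked accessible-chromatin signal at marker loci of root hair, root cap and endodermis were examined in single-cell ATAC-seq (scATAC-seq) libraries of the cultivar Nipponbare. They numbered 16248 of 39257 nuclei, or 41.4%. The assay lets the Tn5 transposase cut DNA where chromatin is open, and a barcode marks the fragments of each nucleus. A barcode was taken as a nucleus when it held 10000 to 60000 cut sites in the peaks of its library. A nucleus was a member when it had 0 cut sites at the endodermis marker locus (chr1:8786232-8793564) and at both root cap loci (chr4:32053554-32059455 and chr6:19737425-19740610), and under 1 cut site per 10000 at the root hair loci (chr10:16864903-16885590 and chr5:15714589-15717880 summed). These counts chose the members, so the low signal at those 5 loci is not a result. Coordinates follow the deposited peaks, and the sources used here name no genome build for them.

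The HS group is 2 libraries of nuclei from root tips of seedlings that the study exposed to 45 °C for 3 h, and the Normal group is 2 libraries from seedlings without that exposure. The labels of all 4 libraries give growth at 28 °C, seedlings 3 days old and root tips of 5 mm, and the heat exposure is stated only in the text of the study. Each library pools nuclei of many root tips, so a library is the replicate. For HS against Normal, p-values measure the spread between 2 libraries of a group only. Where sets of nuclei of the same library were compared, they measure how far the within-library difference varied between the 4 libraries. HS replicates 1 and 2 gave 3573 and 3631 members of 8762 and 9043 nuclei, against 4546 and 4498 of 10706 and 10746 nuclei in Normal replicates 1 and 2. Libraries held between 350206085 and 364736225 cut sites in 65218 to 66704 peaks. The members of any 2 libraries shared 15 to 28 barcode sequences. No doublet caller was run.

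The root is built of concentric tissues. The epidermis forms the surface and gives rise to root hairs, the cortex lies below it, the endodermis closes off the inner tissues with a Casparian strip, and the stele in the centre carries xylem and phloem. The root cap covers the tip and protects the meristem, where young cells still divide. Nuclei without hair, cap or endodermis signal could come from stele, cortex, epidermis or young cells, and the marker loci for stele (LOC_Os01g15830, chr1:8930195-8940873) and epidermis (LOC_Os08g02300, chr8:865825-869282) were used to look at them. The coordinates of both loci came with the selection rule, and no table used here pairs these genes with a position, so that results at the loci are results at those coordinates. LOC_Os08g02300 is listed by the study as a NAC family transcription factor. No located marker of cortex or of dividing cells was held, so these were not analysed here, and none of 6 stele genes, 5 endodermis genes and 4 cell-division genes of the prepared lists had a known position.

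Members made up 40.8% (95% confidence interval 39.7 to 41.8) and 40.2% (39.1 to 41.2) of the nuclei of HS replicates 1 and 2, against 42.5% (41.5 to 43.4) and 41.9% (40.9 to 42.8) in Normal replicates 1 and 2. These Clopper-Pearson intervals cover counting error only. Both HS libraries were below both Normal libraries, and 2 against 2 libraries cannot give an exact permutation p below 0.333 (2-sided). The loci that removed nuclei differed between the groups. The endodermis locus removed 28.8% and 28.9% of HS nuclei, against 22.8% and 24.2% of Normal nuclei. The root cap loci removed 23.9% and 24.5% of HS nuclei, against 26.1% and 26.3% of Normal nuclei. The root hair loci removed 29.2% and 30.0% of HS nuclei, against 30.0% and 29.3% of Normal nuclei, where the groups overlapped.

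A rule that asks for 0 cut sites keeps more shallow nuclei. Members had median depths of 27695 and 27953 cut sites in HS, against 24246 and 23762 in Normal, while the other nuclei had 29283 and 28843 in HS, against 26055 and 26349 in Normal. When every nucleus was thinned to 5000 fragments, the same rule kept 53.1% and 53.8% of HS nuclei, against 54.9% and 54.7% of Normal nuclei. Between 22.9% and 26.6% of the other nuclei of a library stood outside by 1 fragment at the endodermis or cap loci alone. Between 18.1% and 20.0% of members had some signal at the root hair loci, up to 0.999 per 10000, and the nearest nuclei outside that limit had 1.00. Membership is thus a cut through a graded signal at low counts.

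The marker lists show how far the members were depleted of hair and cap nuclei. Of the first 50 root hair genes of the study's marker table outside the rule's loci, which lie in 46 regions, 44 regions were lower in members than in other nuclei at an adjusted p of at most 0.01 (edgeR quasi-likelihood test, Benjamini-Hochberg), none was higher, and 31 were lower by at least 2-fold. Of all 55490 regions 40.5% passed that adjusted p, 19.7% higher and 20.8% lower, and 2.83% were lower by at least 2-fold. The median log2 fold change of the list was -1.40, against 0.01 over all regions. Since the same nuclei were sorted on root hair signal, this describes the sort and is no independent test. The summed level of the list was 14.5 and 14.9 cut sites per 10000 in HS members and 12.9 and 13.0 in Normal members, against 29.0 and 28.9 in the other HS nuclei and 27.8 and 27.3 in the other Normal nuclei. Of 49 root cap regions, 46 were lower and 16 were lower by at least 2-fold, with a median of -0.65 and a summed level of 20.2 to 21.1 in members, against 30.5 to 30.9 in other nuclei. Members thus kept a lower but clear signal at both lists, whose part in the results below was not tested.

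Over all regions outside the rule's loci, 1674 of 55490 (3.02%) differed between members and other nuclei past an adjusted p of 0.01 and 2-fold, 104 (0.187%) higher and 1570 lower in members. The number of gains moved with the choice of nuclei, to 270 at 10000 to 40000 cut sites, 203 with membership after thinning and 32 with 0 cut sites required at the root hair loci. The strongest losses lay beside the chromosome 10 root hair locus that the rule used. In chr10:16854236-16858165 members had 0.0318 and 0.0330 cut sites per 10000 in HS and 0.0391 and 0.0416 in Normal, against 0.331 and 0.333 in the other HS nuclei and 0.351 and 0.350 in the other Normal nuclei. Its neighbours chr10:16852788-16853461 and chr10:16859241-16860704 had log2 fold changes of -3.40 and -3.31, and the region of LOC_Os10g31540 on the same chromosome had -3.13. The region chr9:13620670-13623018 was the only one of the 5 strongest losses outside chromosome 10, at -3.13. Gains were smaller. The region chr9:22015520-22017111 had 0.285 and 0.294 in HS members and 0.244 and 0.234 in Normal members, against 0.117 and 0.114 in the other HS nuclei and 0.111 and 0.119 in the other Normal nuclei. The region chr12:9342280-9343556 had 0.174 and 0.176 in HS members and 0.148 and 0.157 in Normal members, against 0.0740 and 0.0657 in the other HS nuclei and 0.0676 and 0.0736 in the other Normal nuclei. Both were higher in members of every library, with log2 fold changes of 1.26 for this region and 1.23 for the one on chromosome 9. Among the other 3 of the 5 strongest gains, chr12:22465470-22465710 was held by few cut sites and had almost equal values in Normal replicate 2, at 3.42e-04 in members and 3.41e-04 in other nuclei. Members had 100 cut sites there in HS replicate 1, against 22 in HS replicate 2 and 11 and 4 in Normal replicates 1 and 2. Its call was lost without HS replicate 1 (log2 0.83, edgeR adjusted p = 0.084) and with DESeq2 (adjusted p = 0.033).

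The stele marker locus was more accessible in members. It had 1.19 and 1.16 cut sites per 10000 in HS members and 1.16 and 1.13 in Normal members, against 0.911 and 0.923 in the other HS nuclei and 0.855 and 0.825 in the other Normal nuclei. All 4 libraries had a higher value in members, with a log2 fold change of 0.45 ± 0.02 (SE, edgeR adjusted p = 2.2e-08). Of all 55490 regions 19.7% were higher in members at an adjusted p of at most 0.01. Members were sorted for low signal at loci of other tissues, and the part of that sort in this rise was not tested. The stele locus also lies on chromosome 1, as does the endodermis locus of the rule. Barcodes of 100 to under 1000 cut sites, too few for a nucleus under the rule, had 0.920 and 0.879 in HS and 0.973 and 0.824 in Normal, close to the other nuclei and below the members.

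The epidermis marker locus was also higher in members than in other nuclei, though its counts were low. It had 0.187 and 0.182 cut sites per 10000 in HS members and 0.170 and 0.165 in Normal members, against 0.117 and 0.121 in the other HS nuclei and 0.124 and 0.116 in the other Normal nuclei. The log2 fold change was 0.60 ± 0.04 (SE, edgeR adjusted p = 4.6e-07), in the same comparison in which 19.7% of all regions were higher. The part of the sort in this rise was not tested either. The barcodes of few cut sites ranged between 0.125 and 0.203, on only 19 to 27 cut sites per library, and overlapped with the members, so the level of the members is not separated from that background.

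**Figure D1:**
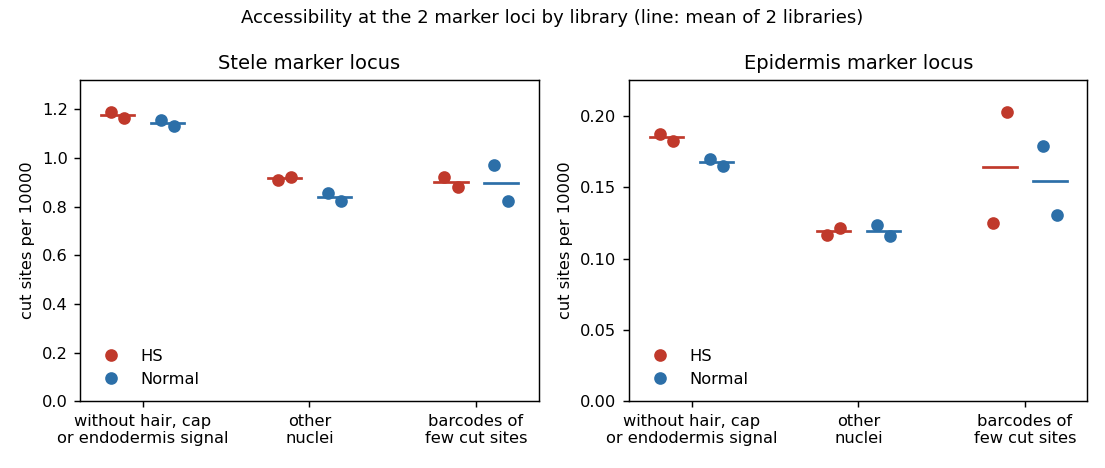
Cut sites per 10000 at the stele marker locus (left) and the epidermis marker locus (right) in nuclei without hair, cap or endodermis signal, in other nuclei and in barcodes of few cut sites, with HS left of Normal and 1 point per library. Members lie above other nuclei in every library at both loci, and the barcodes of few cut sites overlap with them at the epidermis locus only.

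Per nucleus the signal was sparse. After thinning to 5000 fragments, 37.8% (36.2 to 39.4) and 35.6% (34.0 to 37.2) of HS members and 37.2% (35.7 to 38.6) and 35.9% (34.5 to 37.3) of Normal members had a fragment at the stele locus, against 31.3% and 31.9% of the other HS nuclei and 30.7% and 29.6% of the other Normal nuclei. At the epidermis locus 8.65% (7.75 to 9.62) and 9.03% (8.12 to 10.0) of HS members and 7.77% (7.003 to 8.58) and 7.87% (7.10 to 8.70) of Normal members had a fragment, against 5.26% and 5.21% of the other HS nuclei and 5.99% and 5.55% of the other Normal nuclei. Without thinning the stele shares of members were between 57.1% and 61.4%, and the epidermis shares were at most 20.6%. Most members, 56.8% and 58.5% in HS and 58.6% and 59.5% in Normal, had no fragment at either locus after thinning, so neither locus alone assigns a single nucleus to a tissue.

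Members differed among themselves at the stele locus by more than an even rate would give. With 0.591 and 0.556 fragments per member on average in HS and 0.579 and 0.555 in Normal, an even rate would leave 44.6% and 42.6% of HS members and 44.0% and 42.6% of Normal members with a fragment, above the shares found. It would leave 2.22% and 1.90% of HS members and 2.11% and 1.89% of Normal members with 3 or more fragments, whereas 4.84% and 4.30% in HS and 4.64% and 4.78% in Normal had them. The ratio of variance to mean was 1.51 and 1.53 in HS and 1.49 and 1.45 in Normal, against medians of 1.11, 1.11, 1.09 and 1.09 over regions of similar mean in the same libraries. At the epidermis locus this ratio was 1.17 and 1.10 in HS and 1.11 and 1.12 in Normal, against medians of 1.04, 1.05, 1.03 and 1.03. Signal at the stele locus was thus concentrated in some of the members.

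The stele level differed little with depth. The third of members with the fewest cut sites had 1.15 and 1.12 per 10000 in HS and 1.15 and 1.08 in Normal, and the third with the most had 1.25 and 1.21 in HS and 1.16 and 1.15 in Normal. The epidermis level went the other way, most of all in HS. The third with the fewest cut sites had 0.227 and 0.234 per 10000 in HS and 0.181 and 0.179 in Normal, and the third with the most had 0.180 and 0.156 in HS and 0.153 and 0.151 in Normal.

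Fragments at both loci in 1 nucleus were about as frequent as the product of the 2 shares in HS, and somewhat more frequent in Normal. Both loci had a fragment in 116 and 113 HS members, where the product of the shares gives 117 and 117, and in 159 and 146 Normal members, where it gives 131 and 127. Among Normal members with an epidermis fragment, 45.04% and 41.2% also had a stele fragment, against 36.5% and 35.4% of those without. Among HS members these shares were 37.5% and 34.5%, against 37.8% and 35.7%. Whether HS and Normal differ in this was not tested. Members with and without an epidermis fragment had stele levels of 1.19 and 1.18 per 10000 fragments in HS replicate 1, 1.01 and 1.12 in HS replicate 2, 1.40 and 1.14 in Normal replicate 1 and 1.36 and 1.09 in Normal replicate 2, with a log2 fold change of 0.13 ± 0.06 (SE, edgeR adjusted p = 0.34).

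To see what else was open in members with stele signal, members with a fragment at the stele locus after thinning were compared with members without one, library by library. Of 54279 regions, 126 (0.232%) passed both limits, 99 (0.182%) of them higher and 27 (0.0497%) lower, and 8.15% passed the adjusted p alone. The neighbouring region chr1:8926717-8929223, 971 bp from the locus, was higher, with a log2 fold change of 1.46 (edgeR adjusted p = 8.1e-22). The next region, chr1:8923255-8925499, had 0.75 (adjusted p = 0.003). No other of the 28 regions within 100 kb passed. Elsewhere in the genome, chr11:24745129-24745776 had 0.0770 and 0.0666 fragments per 10000 in HS members with a stele fragment and 0.0296 and 0.0335 in Normal ones, against 0.0171 and 0.0231 in HS members without one and 0.0112 and 0.00971 in Normal members without one. It was higher in all 4 libraries, with a log2 fold change of 1.73 ± 0.20 (SE). The region chr12:15382222-15382614 had the largest difference, 2.43 ± 0.41, on low counts.

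In the other direction, chr7:17586044-17587249 was lower in members with a stele fragment. It had 0.0696 and 0.0681 fragments per 10000 in HS and 0.0485 and 0.0620 in Normal, against 0.156 and 0.156 in HS members without one and 0.132 and 0.140 in Normal members without one, a log2 fold change of -1.25 ± 0.11 (SE, edgeR adjusted p = 8.9e-15). It was lower in all 4 libraries. Of the 46 root hair regions 10 were higher in members with a stele fragment at the adjusted p (background 4.21%) and none lower (background 3.94%), with a median of 0.14, and of 49 root cap regions 7 were higher and 3 lower. DESeq2 passed 3 of the root hair regions and 5 of the root cap regions. Of the 13 heat response regions described further on, 0 passed the adjusted p with edgeR or DESeq2. An unadjusted edgeR p under 0.05 was found for 4 of them, against 12367 of all 54279 regions.

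Members with and without a fragment at the epidermis locus differed at few regions, at 12 (0.0221%) of 54384, with 4 higher (0.00736%) and 8 lower (0.0147%). The adjusted p alone was passed by 0.594%, 0.195% higher and 0.399% lower. All 4 that were higher lay within 25 kb of the locus on chromosome 8. The region chr8:842500-844298 had 0.291 and 0.189 fragments per 10000 in HS members with an epidermis fragment and 0.306 and 0.294 in Normal ones, against 0.0944 and 0.117 in HS members without one and 0.129 and 0.120 in Normal members without one. Its log2 fold change was 1.22 ± 0.13 (SE, edgeR adjusted p = 8.8e-16). The regions chr8:864288-865022, chr8:862952-863556 and chr8:856333-857126 had 1.44, 1.25 and 1.34, and the last lost its call without Normal replicate 1 (log2 0.98, edgeR adjusted p = 0.37) and without Normal replicate 2 (adjusted p = 0.023). Of the 40 regions within 100 kb, 7 were higher and none lower at the adjusted p, and their median was 0.30, against 0.00 over all regions. The clearest loss was chr10:18066236-18068298, with 0.188 and 0.128 in HS and 0.136 and 0.186 in Normal, against 0.317 and 0.376 in HS members without a fragment and 0.309 and 0.325 in Normal members without one. Its log2 fold change was -1.06 ± 0.13 (SE, adjusted p = 4.8e-12). Of the root hair and root cap lists 0 regions passed the adjusted p with edgeR or DESeq2. An unadjusted edgeR p under 0.05 was found for 7 of 46 and 8 of 49, against 5366 of all 54384 regions.

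**Figure D2:**
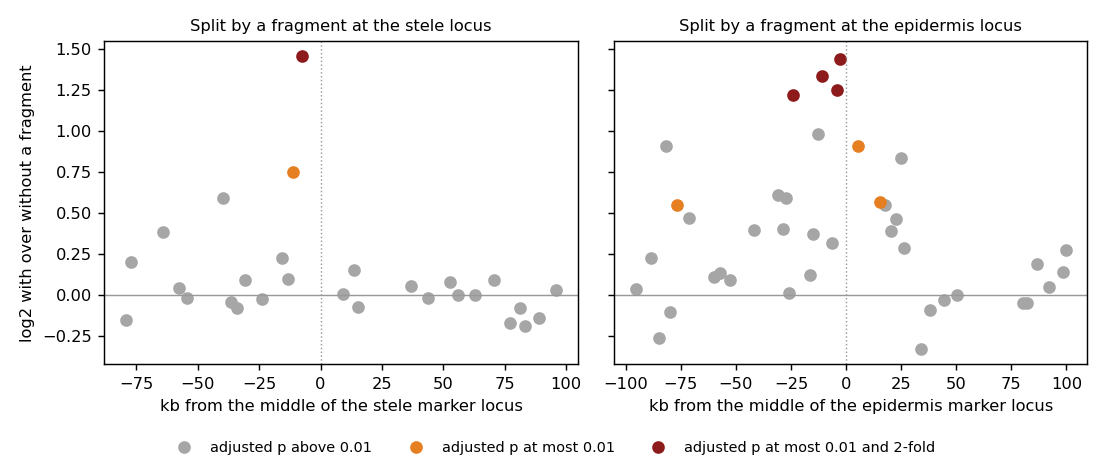
Log2 fold change between nuclei with and without a fragment at the stele locus (left) and at the epidermis locus (right), for each region within 100 kb, against its distance in kb. The raised regions cluster at the epidermis locus, with 7 of 40 regions higher past the adjusted p, against 0.195% of all regions in that split. Beside the stele locus 2 of 28 regions were higher past it, against 4.21% of all regions in that split.

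Members of each condition were clustered on all regions, without joining HS and Normal and without batch correction. HS members fell into 5 clusters and Normal members into 6, and every cluster held nuclei of both libraries of its condition. Clusters were made from the same counts that describe them, so they are given without a test and are called by number.

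In HS, cluster 2 had the most signal at the epidermis locus, 0.316 and 0.310 cut sites per 10000, together with 1.89 and 1.91 at the stele locus, and it held 36.0% and 36.3% of the members. The small HS cluster 4 (6.69% and 6.14%) was highest at the stele locus, with 2.32 and 2.45, and low at the epidermis locus, with 0.142 and 0.158. HS cluster 1, the largest with 47.5% and 46.6% of members, was low at both, with 0.597 and 0.525 at the stele locus and 0.108 and 0.0918 at the epidermis locus. HS cluster 5 was as low at both.

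In Normal, the highest cluster differed between the 2 loci. Cluster 2 (23.6% and 22.5% of members) and the small cluster 5 (3.39% and 3.65%) were high at the stele locus, with 2.61 and 2.62 in cluster 2 and 2.07 and 2.25 in cluster 5. At the epidermis locus cluster 2 had 0.251 and 0.247, below cluster 3 but above the other clusters. Cluster 3 (11.5% and 11.6%) was highest at the epidermis locus, with 0.496 and 0.454, and had 0.699 and 0.745 at the stele locus. Normal cluster 1, again the largest with 52.7% and 52.5% of members, had 0.612 and 0.579 at the stele locus and 0.0761 and 0.0805 at the epidermis locus. Cluster 6 was likewise low at both.

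HS cluster 3 and Normal cluster 4 were the shallow ones, with medians of 15275 and 15277 cut sites in HS and 16354 and 16378 in Normal. They also had the highest level of the root hair list, 19.2 and 20.3 cut sites per 10000 in HS and 21.0 and 21.9 in Normal, against 10.4 to 18.4 in the other clusters of both conditions, and the highest level of the root cap list, 23.8 and 25.2 in HS and 28.6 and 28.9 in Normal. At a resolution of 0.2 in place of 0.1, chosen after the values were seen, HS members formed 7 clusters and Normal members 9. HS cluster 2 then appeared as 2 clusters, one with 2.58 and 2.53 at the stele locus and 0.211 and 0.208 at the epidermis locus, the other with 1.06 and 1.08 at the stele locus and 0.444 and 0.448 at the epidermis locus. That 1 HS cluster was highest at the epidermis locus and also high at the stele locus therefore holds at the coarser resolution only. Normal cluster 8 at the finer resolution, 2.90% and 2.85% of members, had 28.6 and 31.4 on the root hair list and 36.9 and 38.7 on the root cap list, against 27.8 and 27.3 (hair) and 30.8 and 30.5 (cap) in the other Normal nuclei. Lack of signal at the loci of the rule thus does not mean lack of hair and cap signal elsewhere in every member. Since no marker of cortex or young cells was held, the largest clusters, low at both loci, keep no tissue name.

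**Figure D3:**
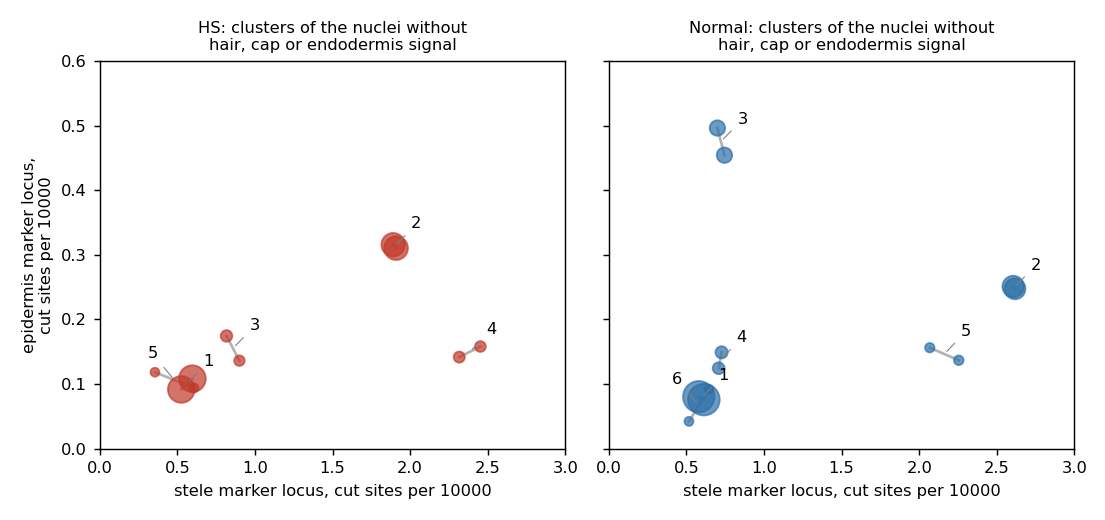
Cut sites per 10000 at the stele locus (horizontal) and at the epidermis locus (vertical) for each cluster of HS (left) and Normal (right) nuclei without hair, cap or endodermis signal, with 1 circle per library, joined by a line, and an area that grows with the number of nuclei. In Normal the highest cluster at the epidermis locus (3) is low at the stele locus, and in HS it is cluster 2, which is high at both at this resolution of 0.1.

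HS was then compared with Normal within the members. At the stele locus the HS libraries had 1.19 and 1.16 cut sites per 10000, against 1.16 and 1.13 in the Normal libraries, and the groups just failed to overlap. The log2 fold change was 0.05 ± 0.02 (SE) and did not pass (edgeR adjusted p = 0.08), but with membership after thinning it was 0.0657 and passed (adjusted p = 0.008). At the epidermis locus the HS libraries had 0.187 and 0.182, against 0.170 and 0.165 in the Normal libraries, with a log2 fold change of 0.15 ± 0.05 (SE, adjusted p = 0.019), which misses the limit of 0.01, and with membership after thinning it was 0.1779 and passed (adjusted p = 0.0081). The peak there was called over 3426 and 3403 bp in the HS libraries, against 2857 and 2867 bp in the Normal libraries, and per called bp the change was -0.10 (adjusted p = 0.18). The heat effect at either locus did not differ between members and other nuclei past the limit, at -0.07 ± 0.03 (SE, edgeR adjusted p = 0.1) for the stele locus and 0.17 ± 0.07 (adjusted p = 0.12) for the epidermis locus.

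Over all regions, 3058 (5.51%) of 55484 passed both limits in members, 1229 (2.22%) higher and 1829 (3.3%) lower in HS, and 41.9% passed the adjusted p alone, 12005 regions (21.6%) higher and 11239 (20.3%) lower, so that the larger number of falls holds for 2-fold changes only. Members were deeper in HS than in Normal, as given above, and of the 46 root hair regions 18 were higher and 11 lower in HS members at the adjusted p, of the 49 root cap regions 20 and 12. Their part in the heat result was not tested. Most of these changes came with a change in the extent over which the peak was called. A library holds no count outside its own peaks, and the caller itself sets the extent from the cut sites, so a change of accessibility and a change of called extent cannot be told apart here. In 2321 of the 3058 regions (75.9%) the called length differed by at least 1.5 times in the direction of the counts, against 12.3% of all regions with such a difference in either direction. Among the 22147 regions of nearly constant called length (under 10% difference between libraries), 15 (0.0677%) were higher and 22 (0.0993%) lower, under a filter that by construction favours regions of small change. With called length as an offset, 166 were higher and 197 lower.

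**Figure D4:**
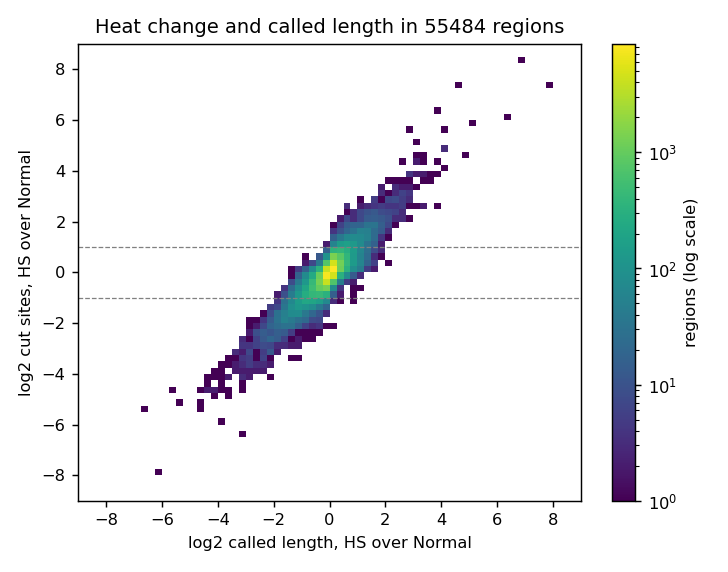
Log2 fold change of cut sites (vertical) against log2 ratio of called length (horizontal), HS over Normal, over 55484 regions of the nuclei without hair, cap or endodermis signal, with the number of regions in each square as colour on a log scale and dashed lines at 2-fold. Of the 697 regions changed by at least 4-fold, 684 also had a called length changed by at least 1.5 times in the same direction.

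The largest changes were of this kind. The region chr5:18378528-18380076 had 0.0120 and 0.0257 cut sites per 10000 in HS members, against 0 and 8.54e-05 in Normal members, and its peak was called over 642 and 1538 bp in the HS libraries, against 1 and 18 bp in the Normal libraries. The 10 strongest rises had log2 fold changes of 4.98 to 8.47 and the 10 strongest falls of -4.73 to -7.77. Some of these fitted values rest on a few cut sites in 1 group and their size is unstable. Without single libraries chr5:18378528-18380076 ranged over 7.61 to 10.70 and chr10:2449603-2450406 over -10.19 to -6.94. The call was lost at chr4:28569828 without HS replicate 1 (edgeR adjusted p = 0.043), and at chr5:25004172 without HS replicate 1 (0.018), Normal replicate 1 (0.027) or Normal replicate 2 (0.014) and with DESeq2 (0.02). With DESeq2 the call was also lost at chr10:10168955 (adjusted p = 0.017). Per called bp, 2 of the 10 strongest rises (chr3:20959348-20959834 and chr9:2088763-2089190) and none of the 10 strongest falls still passed the adjusted p. The longest, chr6:12565075-12575707, had 0.0102 and 0.00592 in HS members, against 0.210 and 0.220 in Normal members, with 581 and 354 bp called in HS, against 10093 and 10633 bp in Normal.

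Some regions changed at nearly constant extent. The region chr9:12875892-12882444 had 0.715 and 0.733 cut sites per 10000 in HS members, against 0.266 and 0.266 in Normal members, a log2 fold change of 1.45 ± 0.03 (SE, edgeR adjusted p = 1.9e-11). The region of LOC_Os05g10790, chr5:5972644-5974416, had 0.0827 and 0.0856 in HS members, against 0.0256 and 0.0295 in Normal members, the strongest rise of this set at 1.62 ± 0.09. The region of LOC_Os03g25840 had 0.446 and 0.431 in HS members, against 0.174 and 0.179 in Normal members. Each of the 3 had both HS libraries above both Normal libraries, but they were picked for their size of change.

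Among the falls of this set, chr2:10010707-10027225, a broad region, had 0.889 and 0.919 in HS members, against 1.91 and 1.86 in Normal members, a log2 fold change of -1.05 ± 0.02 (SE, edgeR adjusted p = 2.3e-11). The region of LOC_Os01g18320 had 0.208 and 0.205 in HS members, against 0.452 and 0.458 in Normal members, a change of -1.13 ± 0.03. The region of LOC_Os02g09720 had 0.0884 and 0.0951 in HS members, against 0.226 and 0.210 in Normal members. The strongest was chr5:811574-812185 at -1.35 ± 0.18.

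The heat response rests on heat stress transcription factors, which switch on genes of chaperones, the heat shock proteins (HSP) that keep other proteins folded or dissolve their aggregates. Of 22 such genes of a prepared list, 16 had a known position, in 13 accessible regions. These positions come in part from tables of peaks that the study found changed by heat in root hair nuclei of the same libraries, so the direction of the list is not independent evidence. In HS members 11 of the 13 regions were higher at an adjusted p of at most 0.01 (background 21.6% of regions higher), 1 was lower (background 20.3%) and 1 did not pass, and 3 were higher by at least 2-fold (background 2.22%). The median log2 fold change was 0.60, against 0.00 over all regions.

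Among the large chaperones, the region of HSP82A (LOC_Os04g01740), an HSP90 of the cytosol, had 0.708 and 0.684 cut sites per 10000 in HS members, against 0.240 and 0.227 in Normal members, the largest rise of the list at 1.58 ± 0.04 (SE, edgeR adjusted p = 3.6e-11). Its called length was 5948 and 5991 bp in HS, against 3957 and 3898 bp in Normal, and per called bp the change was 0.98. The region of HSP101 (LOC_Os05g44340), a ClpB-type disaggregase that takes protein aggregates apart, had 0.917 and 0.877 in HS members, against 0.512 and 0.551 in Normal members, at 0.76 ± 0.03 and at 0.27 per called bp. The region of HSP81-1 (LOC_Os08g39140), a further HSP90, which also holds LOC_Os08g39150, had 1.46 and 1.42 in HS members, against 1.15 and 1.14 in Normal members, at 0.34 ± 0.02. The region of BiP1 (LOC_Os02g02410), the HSP70 of the endoplasmic reticulum, had 1.62 and 1.64 in HS members, against 1.64 and 1.68 in Normal members, and did not pass (-0.01 ± 0.02, adjusted p = 0.55).

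Small heat shock proteins bind unfolding proteins and keep them from clumping. The region of HSP26.7 (LOC_Os03g14180), a chloroplast member, had 0.490 and 0.475 in HS members, against 0.192 and 0.205 in Normal members, at 1.29 ± 0.04 (SE, edgeR adjusted p = 4.2e-10) and at 1.09 per called bp. The region of LOC_Os01g08860 had 0.696 and 0.642 in HS members, against 0.296 and 0.296 in Normal members, at 1.18 ± 0.04. Both were more than 2-fold higher, but LOC_Os01g08860 was at 0.95 per called bp, under 2-fold. Its called length was 6321 and 6181 bp in HS, against 5298 and 5348 bp in Normal.

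The region that HSP17.4, HSP17.7 and HSP18.0 share on chromosome 3 had 1.07 and 1.04 in HS members, against 0.656 and 0.663 in Normal members, at 0.68 ± 0.02. The region of HSP17.9A (LOC_Os03g15960), nearby, had 0.579 and 0.577 in HS members, against 0.372 and 0.356 in Normal members, at 0.67 ± 0.03, but its called length was 4211 and 4226 bp in HS, against 2436 and 2739 bp in Normal, and per called bp the change was -0.04 (edgeR adjusted p = 0.72). On chromosome 1, the region of HSP16.9C rose by 0.60 ± 0.02 and the region shared by HSP16.9A and HSP16.9B by 0.55 ± 0.02 on the log2 scale. The shared region had 2.21 and 2.17 in HS members, against 1.49 and 1.51 in Normal members, at nearly the same called length.

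Of the regulators, the region of OsHsfA2c (LOC_Os10g28340), a heat stress transcription factor, which also holds LOC_Os10g28330, had 1.21 and 1.22 in HS members, against 0.921 and 0.921 in Normal members, at 0.41 ± 0.02 (SE, edgeR adjusted p = 1.0e-08). The region of OsHsfA2d (LOC_Os03g06630), of the same class, which also holds LOC_Os03g06620, was the 1 region that was lower, with 2.48 and 2.49 in HS members, against 2.65 and 2.63 in Normal members, at -0.08 ± 0.01, a call that was lost per called bp (-0.04, edgeR adjusted p = 0.27). This call was also lost in nuclei of 10000 to 40000 cut sites (-0.05, edgeR adjusted p = 0.025). MBF1c (LOC_Os06g39240), a transcriptional coactivator of the heat response, had 0.415 and 0.398 in HS members, against 0.320 and 0.324 in Normal members, at 0.34 ± 0.03. In all 3 the HS and Normal libraries did not overlap, but the share of all regions without overlap is not given here.

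The difference between HS and Normal in the same regions was also compared between members and other nuclei. The shares that the endodermis and root cap loci removed differed between HS and Normal, as given above, and their part here was not tested. Both sets of nuclei of a library share its peaks, but where the extent differs between HS and Normal the sets may differ in the added sequence, so called extent still bears on this comparison. Of the 13 regions, 2 had a heat effect that was higher in members and 5 one that was lower in members at an adjusted p of at most 0.01, against 4.14% higher and 2.17% lower (6.3% in all) of 55490 regions. The root hair list had 17 of 46 regions higher and 8 lower in the same comparison. The region of HSP16.9A and HSP16.9B was 1.46-fold higher in HS than in Normal among members and 1.21-fold higher among other nuclei, a difference of 0.29 ± 0.02 on the log2 scale (SE, edgeR adjusted p = 2.9e-16). The other nuclei had 2.19 and 2.18 in HS and 1.80 and 1.81 in Normal, so that other nuclei of Normal stood above members of Normal while the HS values were alike. OsHsfA2c was 1.32-fold higher in HS among members and 1.21-fold higher among other nuclei, at 0.14 ± 0.03 (adjusted p = 4.5e-05).

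In the other direction, HSP82A was 2.98-fold higher in HS among members and 3.80-fold higher among other nuclei, a difference of -0.33 ± 0.04 (SE, edgeR adjusted p = 4.4e-09). HSP81-1 was 1.26-fold higher among members and 1.47-fold higher among other nuclei, at -0.21 ± 0.03 (adjusted p = 4.0e-09). The shared region of HSP17.4, HSP17.7 and HSP18.0 was 1.60-fold higher among members and 1.84-fold higher among other nuclei, at -0.18 ± 0.03 (adjusted p = 4.1e-06). MBF1c was 1.26-fold higher among members and 1.51-fold higher among other nuclei, at -0.24 ± 0.05 (adjusted p = 8.8e-05), and HSP17.9A 1.59-fold and 1.81-fold higher, at -0.17 ± 0.04 (adjusted p = 0.0012). For OsHsfA2c, MBF1c and HSP17.9A the difference missed the limit with DESeq2 (adjusted p = 0.025, 0.013 and 0.04), and for OsHsfA2c also without HS replicate 2 (adjusted p = 0.018). With 0 cut sites required at the root hair loci it was also missed for MBF1c (edgeR adjusted p = 0.025) and HSP17.9A (0.028), and for HSP17.9A without Normal replicate 1 (0.015), and it was just missed without Normal replicate 2.

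**Figure D5:**
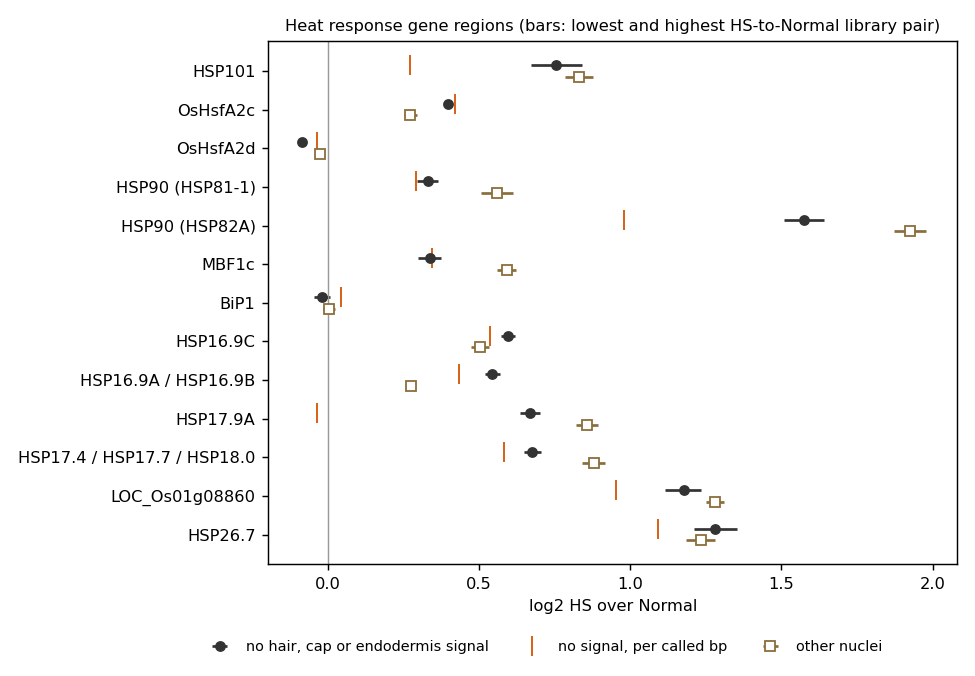
Log2 ratio of mean cut sites per 10000, HS over Normal, in the 13 heat response regions for nuclei without hair, cap or endodermis signal (filled circles) and other nuclei (open squares), with bars from the lowest to the highest pair of an HS and a Normal library, and the fitted change per called bp for the nuclei without signal (orange strokes). HSP82A stands highest in both sets of nuclei, and the set without signal lies lower there and higher at HSP16.9A and HSP16.9B.

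Over all regions, the heat effect differed between members and other nuclei past both limits at 61 regions (0.11%), higher in members at 17 (0.0306%) and lower at 44 (0.0793%). The balance of directions was not stable, with 29 higher and 30 lower at 10000 to 40000 cut sites, 24 and 20 with membership after thinning, and 2295 and 1202 at the adjusted p alone. Among 22146 regions of constant called length 4 passed, and of the 10 regions singled out 2 had constant length. DESeq2 called 8 and gave no adjusted p for 52 of the 61. The region of LOC_Os08g42670, chr8:26351043-26353986, had 0.0392 and 0.0441 in HS members, against 0.0532 and 0.0539 in Normal members, while the other nuclei had 0.0636 and 0.0563 in HS, against 0.198 and 0.193 in Normal. Its heat effect was thus a smaller loss in members, a difference of 1.36 ± 0.10 (SE, edgeR adjusted p = 2.4e-17). The region chr5:811574-812185, named above, fell in members and had 0.0340 and 0.0298 in the other HS nuclei, against 0.0310 and 0.0301 in the other Normal nuclei, a difference of -1.40 ± 0.17 (adjusted p = 3.5e-09). The region chr12:14725850-14727177 had 0.00289 and 0.00488 in HS members, against 0.0146 and 0.0170 in Normal members, while the other nuclei had 0.0210 and 0.0263 in HS, against 0.0214 and 0.0258 in Normal.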

How the data were processed

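Nuclei were analysed from 2 HS and 2 Normal scATAC-seq libraries. The authors ran the Cell Ranger ATAC 1.2.0 count pipeline on each library and deposited raw counts of Tn5 cut sites per peak and barcode, neither normalized nor filtered for nuclei. The sources used here name neither the genome build nor the annotation. Groups came from sample titles. The members and gene lists were chosen with earlier results of these data known.

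Peaks sharing 1 bp or more were merged into 66332 regions, with 55496 of them called in every library. The fits of members against other nuclei and of the difference in heat effect left out 6 regions of the rule's loci. The split fits left out only the region of the split locus, and the HS against Normal fit left out none by locus. Fragments are cut sites halved and rounded up, and nuclei were thinned to 5000 fragments without replacement. Counts were summed per library and set of nuclei, and levels are given per 10000 cut sites of the set. Sums were fitted with edgeR 4.0.16 (TMM, filterByExpr, quasi-likelihood test, library as block where nuclei of 1 library were compared) in R 4.3.3, with limits of a Benjamini-Hochberg adjusted p of 0.01 and 2-fold. The SE was taken from the fold change and its F statistic. Clusters used log TF-IDF, 30 components of latent semantic indexing, 20 neighbours and Leiden clustering at a resolution of 0.1 (leidenalg 0.10.2, Python 3.11.15). Scripts were tested on simulated data.

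Gene positions, with 2000 bp upstream, came from the study's supplementary tables, which are shortened here, so regions without a gene name may still hold genes. Where a gene had several regions, the one with the most cut sites was used. Named regions were the marker loci, the heat list, the 10 strongest rises and falls after heat with groups that did not overlap, and for other contrasts the 5 strongest each way with 1 direction in all libraries. Regions of constant called length were added by size of change after their values were seen, as were the neighbours of both loci. The marker lists took the first 50 genes of each table section. DESeq2 1.42.0 was an alternative.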

Additional observations from a re-analysis of the deposited data

Results flagged for a closer look

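The results below are heat effects (HS over Normal) that differed between nuclei without hair, cap or endodermis signal and the other nuclei by a test of the difference itself (edgeR, library as block). Values are differences on the log2 scale, members minus other nuclei.

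Among heat response genes, the difference was 0.29 for the region of HSP16.9A and HSP16.9B and 0.14 for OsHsfA2c. It was -0.33 for HSP82A, -0.24 for MBF1c, -0.21 for HSP81-1, -0.18 for the region of HSP17.4, HSP17.7 and HSP18.0, and -0.17 for HSP17.9A.

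Of the 5 regions with the strongest difference upwards, chr12:21997324-21997786 (LOC_Os12g35990) had 1.38, chr4:15439305-15440495 had 1.37, chr8:26351043-26353986 (LOC_Os08g42670) had 1.36, chr8:17503160-17503859 had 1.24 and chr11:312482-312955 had 1.20. Of the 5 strongest downwards, chr12:14725850-14727177 had -2.01, chr6:5963335-5964586 had -1.78, chr12:22361043-22361961 had -1.68, chr11:6578833-6579884 (LOC_Os11g11990) had -1.42 and chr5:811574-812185 had -1.40. In chr11:6578833-6579884 both sets of nuclei were higher in HS, with 0.0124 and 0.0150 in HS members, against 0.00834 and 0.00350 in Normal members, and 0.0365 and 0.0429 in the other HS nuclei, against 0.00873 and 0.00392 in the other Normal nuclei. In chr12:22361043-22361961 members had 0.00810 and 0.00667 in HS, against 0.0335 and 0.0354 in Normal, and other nuclei had 0.0328 and 0.0330 in HS, against 0.0474 and 0.0473 in Normal. DESeq2 gave no adjusted p for 9 of these 10 regions, all but chr8:26351043-26353986, since its filter on mean count left them out. The region chr8:17503160-17503859 missed the limit at 10000 to 40000 cut sites (edgeR adjusted p = 0.018), at 20000 to 60000 (0.011), with 0 root hair cut sites (log2 0.76, adjusted p = 0.15), without HS replicate 1 (0.063) and without Normal replicate 1 (0.022). The region chr11:312482-312955 missed it with 0 root hair cut sites (0.014) and without HS replicate 1 (0.021). With membership after thinning it was missed by chr12:21997324-21997786 (log2 0.83, adjusted p = 0.011) and chr11:6578833-6579884 (-0.65, 0.034). No cause was tested for any of these differences.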

How the results depend on the processing

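The number of regions passing both limits moved by over 1.5 times under these settings. With called length as an offset, chosen after seeing the data, heat calls in members numbered 363 in place of 3058. Among regions of constant called length there were 37 of 22147 for heat and 595 of 22146 for members against other nuclei. The difference in heat effect had 4 of 22146, the stele split 41 of 22131 and the epidermis split 5 of 22125. The main fits had 3058 of 55484, 1674 of 55490, 61 of 55490, 126 of 54279 and 12 of 54384. Fewer regions were thus tested under this setting, which alone lowers the counts. With no limit on fold there were 23244, 22448, 3497, 4424 and 323 in the same order. DESeq2 gave 8 for the difference in heat effect, 50 for the stele split and 2 for the epidermis split. It gave no adjusted p for 80 of the 126 edgeR calls of the stele split and 10 of the 12 of the epidermis split. Of the edgeR calls with a DESeq2 adjusted p, both tools called 45 of 46 (stele) and 2 of 2 (epidermis). The epidermis split had 30 with edgeR at an adjusted p of at most 0.05. Without single libraries the counts ranged over 2730 to 3275, 1592 to 1758, 63 to 82, 113 to 167 and 9 to 17. The difference in heat effect was split 17 higher to 44 lower, but 29 to 30 in nuclei of 10000 to 40000 cut sites and 24 to 20 with membership after thinning. With that membership the heat change passed the limit at the stele locus (log2 0.0657, edgeR adjusted p = 0.008) and the epidermis locus (0.1779, adjusted p = 0.0081), and it turned to -0.1045 (adjusted p = 0.18) at the epidermis locus with the offset. The offset also turned chr1:7165031 to -0.1897, chr4:28569828 to -0.1709, chr1:9579358 to 1.2784, chr11:26124205 to 0.1617 and HSP17.9A to -0.0367. BiP1 changed sign, to 0.0048 with 0 root hair cut sites, 0.0414 with the offset and 0.002 with thinned membership. Shares of members with a fragment were 60.3% in HS and 58.1% in Normal (stele) and 20.6% in HS and 17.8% in Normal (epidermis) without thinning, and the Normal epidermis share was 7.54% with 0 root hair cut sites and 8.02% at 20000 to 60000 cut sites. Of 855 values of 79 single regions or genes, 786 kept their direction and side of the limit, 61 lost the call and 8 reversed. The deviations of HS replicate 1 and Normal replicate 1 from their group means had a correlation of 0.008 over regions. No pairing by replicate number was thus seen, but counting noise can hide one in this check. With the replicate block heat calls numbered 3172 and the changes at the loci were 0.0466 (stele) and 0.1503 (epidermis). The causes were not tested beyond what each setting changes by construction, and limiting the test to constant called length favours regions of small change by construction.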
